A study of Mus musculus with 2 samples.

Results

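Cytosolic ribosomal protein genes encode the proteins of the small and large subunits of the ribosome outside mitochondria. They were taken here as the genes whose symbols name a protein of either subunit, without pseudogenes, with at least 25 unique molecular identifiers (UMIs, each standing for 1 captured transcript) over both libraries. Of 32285 gene identifiers in the files, 84 had such a symbol and 83 passed the UMI limit, 51 for the large and 32 for the small subunit. Rpl10l had 0 UMIs in both libraries, and the 83 genes carried between 283 UMIs and, for 81 of them, more than 1000 UMIs in each library. The labels describe male C57BL/6 mice of 12 weeks, 5 in number, with plantaris muscle taken from a tenotomy side and a contralateral sham-operated side. After 4 days the 5 muscles of a side were pooled, digested with collagenase, and sorted for living mononuclear cells (Calcein AM positive, propidium iodide negative), and each pool gave 1 droplet library. Both sides come from the same animals, so the sham muscle had a tenotomy on the other side. The labels do not say which tendon was cut. With 1 library a side there is no replicate, no test was possible, and treatment cannot be told apart from library. All intervals are exact 95% intervals for counting error only.

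Ribosomal protein mRNAs are among the most abundant in most cells, and their products are made in equal numbers, since each ribosome holds nearly all of them once. In vertebrates many of these mRNAs start with a C followed by a run of pyrimidines, the 5′ terminal oligopyrimidine motif, through which mTOR signalling and Larp1 control their translation. Growing and dividing cells are known for high ribosome production, and muscle growth depends on it. A few members have paralogues used in particular cells, such as Rpl3l, which takes the place of Rpl3 in mature muscle fibres.

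The start motif was looked up in RefSeq promoter windows on GRCm38.p6, which hold 250 bases before and 50 after an annotated start. Of the members, 63 matched with 75 windows. A C followed by at least 4 pyrimidines lay on the annotated start, on the gene's strand, in 17.3% of member windows and in 2.51% of all 32851 windows. It began within 5 bases of the start in 41.3% and 18.3%. The letters CTTCCG, searched on both strands and anywhere in the window, occurred in 61.3% of member windows and 16.9% of all windows. Neither motif is particular to the members. The letters occurred in 53.3% of 75 windows of mitochondrial ribosome genes and 36.7% of 30 windows of ribosome biogenesis genes. Among 17 windows of other translation genes, such as elongation factors, they occurred in 29.4%. There the pyrimidine run lay on the start in 35.3% and began within 5 bases in 47.1%. The following starts belong to members whose values stand apart below, and to Rps6, a subunit protein phosphorylated by S6 kinase. Each shows 30 bases before and 20 after the annotated start, 5′ to 3′, with the pyrimidine run nearest the start in capitals.
Rps27: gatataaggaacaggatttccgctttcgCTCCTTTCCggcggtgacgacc
Rps21: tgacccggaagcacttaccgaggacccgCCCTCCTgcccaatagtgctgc
Rpl15: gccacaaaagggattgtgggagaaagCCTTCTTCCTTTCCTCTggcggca
Rps6: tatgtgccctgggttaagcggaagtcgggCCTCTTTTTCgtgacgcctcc
Rps2: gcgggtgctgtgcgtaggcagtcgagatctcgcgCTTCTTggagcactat
Rps27l: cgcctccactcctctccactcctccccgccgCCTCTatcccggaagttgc
Rpsa: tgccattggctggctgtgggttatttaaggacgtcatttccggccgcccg
In GRCm38.p6 they lie at chr3:90213629-90213678 on the minus strand (Rps27), chr2:180257349-180257398 on the plus strand (Rps21, the first of 2 annotated starts), chr14:18270967-18271016 on the minus strand (Rpl15) and chr4:86857348-86857397 on the minus strand (Rps6). Rps2 lies at chr17:24720033-24720082, Rps27l at chr9:66946056-66946105 (the first of 2 annotated starts) and Rpsa at chr9:120127736-120127785, all 3 on the plus strand. The Rpsa start has no such run within 5 bases. Members with and without the run within 5 bases had close median folds, for example 0.990 (29 genes) and 0.945 (32 genes) in muscle stem cell-like cells. In mesenchymal progenitor-like cells they were 1.35 and 1.37. Some members without it, such as Rps12 and Rps25, have a pyrimidine run further from the annotated start, which need not be the start used. The split therefore cannot separate mRNAs with and without the motif, and no conclusion is drawn from it.

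Cells were sorted into classes by marker gates, because the files hold no cell annotation, and class names therefore end in "-like". The sham file held 47781353 UMIs in 8463 barcodes and the tenotomy file 94556283 UMIs in 11950, of which 7533 and 10928 cells were kept, and 33 barcodes occurred in both files. Of 42 checks of marker genes outside the gates (3 genes, 7 classes, both libraries), 41 were higher in the class than in other cells. The exception was Col1a1 in sham mesenchymal progenitor-like cells, with 1940 counts per 1000000 UMIs (CPM) against 3250 elsewhere. Tenocyte-like cells carried more mesenchymal marker UMIs (a median of 84.5 per cell in sham and 47 in tenotomy) than tenocyte marker UMIs (66 and 21). The tenocyte gate allowed this, since mesenchymal markers did not compete with it. Only 91 of 6284 sham cells and 292 of 8786 tenotomy cells in the 7 classes lay near the gate, with 3 or 4 marker UMIs.

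Ribosomal protein genes gave 12.9% of all UMIs in the kept cells of the sham library and 17.4% in those of the tenotomy library, a ratio of 1.35. The share was higher in the tenotomy library in 6 of the 7 classes with at least 50 cells on each side, and by most in vessel, tendon and connective tissue cells. In blood endothelial-like cells it was 9.86% in 3085 sham cells and 15.6% in 1455 tenotomy cells, a ratio of 1.59 (1.58 to 1.59). In tenocyte-like cells it was 10.4% (364 cells) and 15.9% (183 cells), a ratio of 1.53 (1.52 to 1.53), in a class whose own marker UMIs also differed between the libraries (above), and the part of that in the ratio was not tested. Pericyte or smooth muscle-like cells had 8.23% (206 cells) and 11.7% (121 cells), a ratio of 1.43 (1.41 to 1.44). In mesenchymal progenitor-like cells, which include the fibro-adipogenic progenitors of muscle, the share was 13.3% (1978 cells) and 18.6% (1751 cells), a ratio of 1.40 (1.40 to 1.40). Monocyte/macrophage-like cells differed little, with 13.3% in 289 sham cells and 14.3% in 4424 tenotomy cells, a ratio of 1.08 (1.08 to 1.09).

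Muscle stem cell-like cells had the highest share of the 7 classes in both libraries, and nearly the same one. It was 24.6% in 275 sham cells and 24.3% in 301 tenotomy cells, a ratio of 0.990 (0.986 to 0.993). The direction of this small difference turned with a stricter mitochondrial limit (1.011) and among cells without cycle transcripts (1.005). Neutrophil-like cells had 12.1% (87 cells) and 13.9% (551 cells), but the sums rest on few deep cells. The median cell had 4.52% in sham and 4.08% in tenotomy, and the ratio of the means over cells was 0.818, below 1. Whether the ratios differ between classes was not tested.

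**Figure D1:**
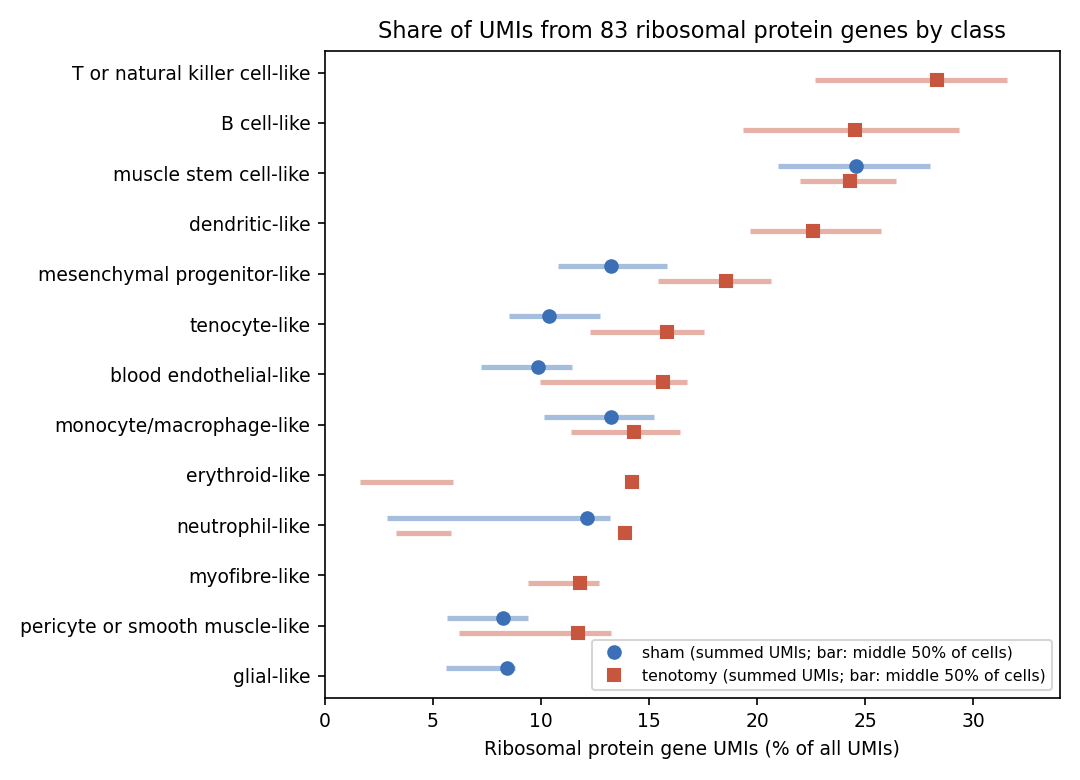
Share of UMIs from the 83 ribosomal protein genes (x axis, percent) in each marker-gated class with at least 50 cells in that library (y axis). Points give summed UMIs and bars the middle 50% of cells. The points lie well apart for blood endothelial-like cells (9.86% and 15.6%) and almost coincide for muscle stem cell-like cells (24.6% and 24.3%), the bars of the 2 libraries overlap in all 7 compared classes, and the tenotomy points of neutrophil-like and erythroid-like cells lie outside their bars.

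Among sham classes with at least 50 cells, muscle stem cell-like cells had the highest share, with a middle 50% of cells from 21.0% to 28.0%. Mesenchymal progenitor-like cells (10.8% to 15.8%) and monocyte/macrophage-like cells (10.1% to 15.2%) came next and overlapped almost fully. Neutrophil-like, tenocyte-like, blood endothelial-like, glial-like and pericyte or smooth muscle-like cells followed at 12.1%, 10.4%, 9.86%, 8.44% and 8.23%, the middle 50% of each overlapping that of its neighbour. Sham lymphocytes were fewer, and 46 B cell-like cells (27.9%) and 13 cells of the T or natural killer cell-like class (33.8%) had still higher shares. In the tenotomy library the lymphocyte classes were also at the top, with 28.3% (78 cells) for the T or natural killer cell-like class and 24.5% (230 cells) for the B cell-like class, next to muscle stem cell-like cells and to 191 dendritic-like cells with 22.6%. The bars of these 4 classes overlapped. Myofibre-like cells had 11.8% in 57 tenotomy cells and 7.58% in 47 sham cells. In 119 erythroid-like cells of the tenotomy library the summed share was 14.2% and that of the median cell 2.69%.

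The makeup of the libraries differed greatly, and the share was therefore also computed with exchanged makeup over 14 groups of cells. With the sham makeup and the tenotomy shares it was 17.6%, and with the tenotomy makeup and the sham shares it was 14.2%. The observed values over the same groups were 12.9% and 17.4%. Small subunit genes gave between 42.1% and 46.9% of the member UMIs in every class and library. Among mesenchymal progenitor-like cells this was 43.5% in sham and 44.0% in tenotomy.

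UMIs per cell also depend on how each library was captured and sequenced. In blood endothelial-like cells the mean number of member UMIs per cell was 375 for sham and 635 for tenotomy (ratio 1.69), while all other UMIs per cell had a ratio of 0.999. In tenocyte-like cells the ratios were 1.34 for members and 0.826 for other UMIs, and in pericyte or smooth muscle-like cells 1.12 and 0.758. In mesenchymal progenitor-like cells both were higher, 2.86 for members (from 1100 to 3147 UMIs per cell) and 1.92 for other UMIs. In muscle stem cell-like cells the ratios were close, 2.70 for members (from 1635 to 4413) and 2.74 for other UMIs. Both were below 1 in monocyte/macrophage-like cells, 0.976 for members and 0.892 for other UMIs, and in neutrophil-like cells, 0.683 and 0.583. In 5 of the 7 classes there were thus more member UMIs per cell on the tenotomy side and in 2 fewer.

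Values tied to RNA quality moved with the library in these classes. The immediate early genes, known to be induced by tissue digestion, made up 1.42% of UMIs in sham and 0.296% in tenotomy mesenchymal progenitor-like cells, 2.04% and 0.752% in blood endothelial-like cells, and 1.18% and 0.176% in muscle stem cell-like cells. Malat1, a nuclear RNA, made up 2.53% and 0.902%, 1.77% and 1.10%, and 3.01% and 0.747% in the same classes. Mitochondrial UMIs differed little, for example 3.03% and 2.75% in mesenchymal progenitor-like cells. The median depth was 8333 and 14188 UMIs per cell in that class, and within cells of 3000 to 10000 UMIs the ratio of the member share was 1.32. The part of these values in the results was not tested.

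Cell states were called from marker genes in cells thinned to 1000 UMIs. Within mesenchymal progenitor-like cells the share of the Pi16 type, a state of the connective tissue sheaths, was 14.7% in sham (259 cells) and 18.2% in tenotomy (142 cells), with a ratio of 1.24 (1.234 to 1.248). For the Smoc2 type, an interstitial state, it was 12.6% (1225 cells) and 18.0% (353 cells), a ratio of 1.43 (1.43 to 1.44). Cells with the matrix genes Postn and Tnc, nearly all in the tenotomy library, had 18.9% (868 cells), and cycling cells had 18.0% (153 cells). The 4 tenotomy states thus lay between 18.0% and 18.9%, all above both sham states.

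Among muscle stem cell-like states, undifferentiated cells, marked by Pax7 and Myf5 among others, had 24.4% in sham (91 cells) and 24.6% in tenotomy (21 cells). Differentiating cells with genes such as Myog and Mymk had 24.4% (88 cells), and cycling cells 23.3% (80 cells), both in the tenotomy library. Among monocyte/macrophage-like cells the C1q type had 12.3% for sham (253 cells) and 14.4% for tenotomy (2688 cells), with a ratio of 1.16 (1.16 to 1.17). In the tenotomy library the inflammatory Ly6c2 type had 16.7% (289 cells), cycling cells 14.7% (139 cells), and the lipid-handling Gpnmb type 12.8% (798 cells). Among endothelial states of the tenotomy library, venous cells had 19.5% (103 cells) and capillary cells 14.4% (926 cells). Capillary cells of the sham library had 9.57% (2695 cells), so their ratio was 1.51 (1.502 to 1.512). Mature neutrophil-like cells had 4.23% in sham (39 cells) and 6.58% in tenotomy (238 cells) by summed UMIs. Single cells differed less, with a mean over cells of 4.17% and 4.37% and a median of 2.90% and 3.53%.

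Single members were compared by their CPM within a class, counting a gene as measured with at least 50 CPM in the higher library and at least 25 UMIs. In blood endothelial-like cells, 48 of 81 measured members were at least 1.5-fold higher in tenotomy and 0 were at least 1.5-fold lower, where 17.8% of all measured genes were higher and 16.4% lower. In tenocyte-like cells 39 of 80 were higher and 0 lower, against 19.5% and 14.1% of all genes, and 24 were higher in cells thinned to 2000 UMIs. Pericyte or smooth muscle-like cells had 33 higher and 0 lower of 80, against 17.8% and 22.4%. In mesenchymal progenitor-like cells 31 of 81 were higher and 1 lower, against 30.0% and 26.4%, so the count of higher members lay close to the background there. It was 20 in cells thinned to 2000 UMIs, and 20 with folds divided by the median of all genes. The median member was nevertheless 1.37-fold higher in that class, where the median of all genes was 1.07. The shares of all genes here are for undivided folds in unthinned cells. Counts from thinned cells or divided folds have no such share beside them.

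In the remaining classes few members passed 1.5-fold. In muscle stem cell-like cells 6 of 81 were higher and 4 lower, against 40.5% and 26.4% of all genes, which is well under the background both ways. With folds divided by the median of all genes, 3 were higher and 14 lower, with no share of all genes computed that way beside them. In monocyte/macrophage-like cells 1 of 81 was higher and 0 lower, against 18.5% and 15.6%. In neutrophil-like cells 0 of 81 passed either way, against 8.98% and 5.94%. When the neutrophil-like cells were thinned to 2000 UMIs each, 49 members were higher, so this class gave no stable count. The median log2 fold of the members was 0.68 in blood endothelial-like cells (0.02 over all genes), 0.58 in tenocyte-like cells (0.10), 0.52 in pericyte or smooth muscle-like cells (-0.06), 0.11 in monocyte/macrophage-like cells (0.11) and -0.04 in muscle stem cell-like cells (0.24).

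**Figure D2:**
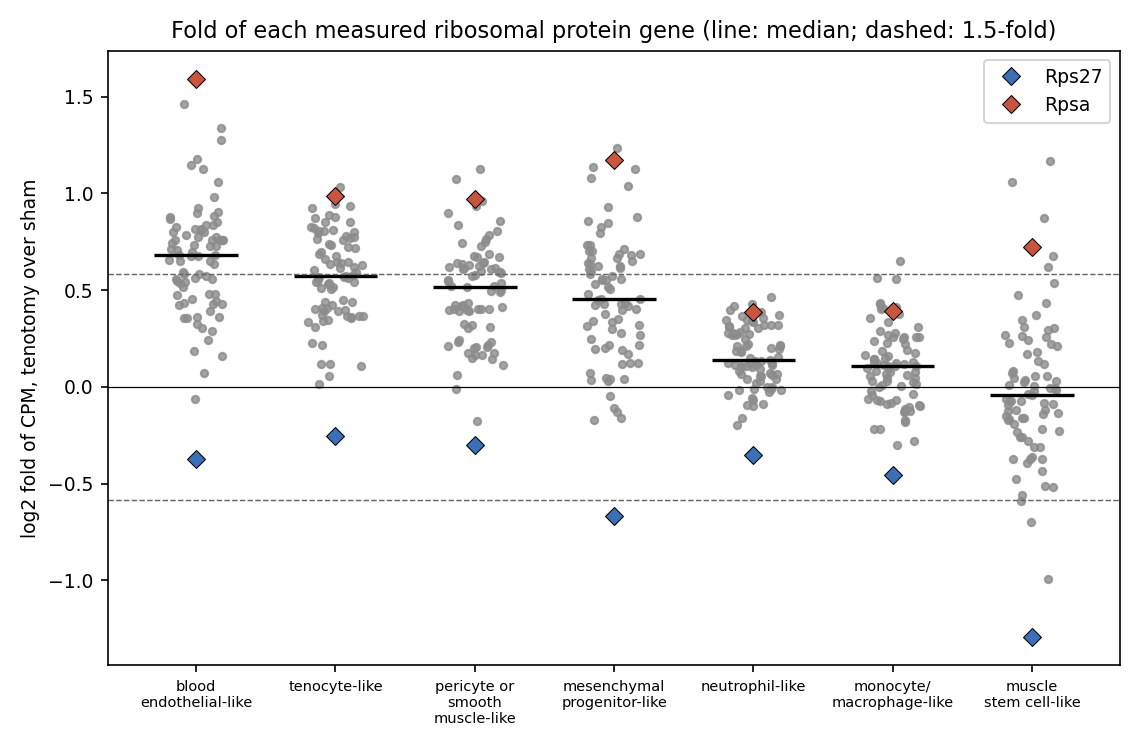
Log2 fold of the CPM (tenotomy over sham, y axis) of every measured ribosomal protein gene in 7 classes (x axis); each point is a gene, lines are medians and dashed lines mark 1.5-fold. Rps27 is the lowest point in all 7 classes, and the line of muscle stem cell-like cells lies at -0.04 against 0.68 in blood endothelial-like cells.

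The members did not move as a block. Rps27, a zinc-binding protein of the small subunit, had the lowest fold of all measured members in each of the 7 classes. Its level in muscle stem cell-like cells was 2391 CPM in sham and 973.7 CPM in tenotomy, a fold of 0.407 (0.391 to 0.424). Among mesenchymal progenitor-like cells it was 1294 and 815.3 CPM, a fold of 0.630 (0.618 to 0.642), and in monocyte/macrophage-like cells 1223 and 892.2 CPM, a fold of 0.729 (0.700 to 0.760). The folds in blood endothelial-like, neutrophil-like, pericyte or smooth muscle-like and tenocyte-like cells were 0.773, 0.784, 0.812 and 0.839. Every one of these values is lower in the tenotomy library, although the members summed were higher in 6 of the 7 classes. The tenotomy levels lay between 687.2 and 973.7 CPM, closer together than the sham levels of 876.0 to 2391 CPM. Rps27rt, a near copy of Rps27 outside the rule, showed the same direction over all barcodes, with 28.4 and 18.0 CPM, and reads shared by the 2 genes could be split between them.

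Rpsa stood at the other end. It encodes a small subunit protein also described as a laminin receptor precursor. In blood endothelial-like cells it had 900.7 CPM in sham and 2717 CPM in tenotomy, a fold of 3.02 (2.94 to 3.09), the highest of the members there. It had 2200 and 4956 CPM in mesenchymal progenitor-like cells, a fold of 2.25 (2.23 to 2.28), and 3641 and 6009 CPM in muscle stem cell-like cells, a fold of 1.65 (1.61 to 1.69). In tenocyte-like and pericyte or smooth muscle-like cells the folds were 1.98 and 1.96, and in monocyte/macrophage-like and neutrophil-like cells both were 1.31. Rps2, another small subunit protein near the mRNA entry channel, was the highest member in mesenchymal progenitor-like cells, with 2054 and 4828 CPM and a fold of 2.35 (2.32 to 2.38). Its folds were 2.76 in blood endothelial-like, 2.10 in pericyte or smooth muscle-like and 1.83 in muscle stem cell-like cells.

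To set aside the change of the whole group, each member was also taken as a share of the member UMIs. Of 80 members measured in all 7 classes, 15 had a larger share in tenotomy in all 7 and 18 a smaller share in all 7. These counts include ratios whose interval holds 1, such as Rpl19 in muscle stem cell-like cells (interval 0.9756 to 1.025), and the interval lay wholly above 1 in all 7 classes for 7 members and wholly below 1 for 10. Rpl8 turned to 0.976 in neutrophil-like cells without cycle transcripts. Those with a larger share were Rpl8, Rpl10a, Rpl12, Rpl14, Rpl15, Rpl18, Rpl19, Rpl29, Rpl32, Rpl36al, Rps2, Rps9, Rps12, Rps27a and Rpsa. Those with a smaller share were Rpl9, Rpl21, Rpl26, Rpl28, Rpl30, Rpl34, Rpl35a, Rpl36, Rpl37, Rpl37a, Rpl38, Rplp2, Rps21, Rps23, Rps25, Rps27, Rps28 and Rps29. The 7 classes share the same 2 libraries, so they are not independent. The ratio of this share ran from 0.412 to 0.684 for Rps27, from 0.507 to 0.821 for Rps21 and from 0.603 to 0.862 for Rps29, and from 1.14 to 1.90 for Rpsa and 1.11 to 1.61 for Rpl15. For Rps2 it ran from 1.002 in neutrophil-like cells (0.944 to 1.06) to 1.85 in muscle stem cell-like cells.

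**Figure D3:**
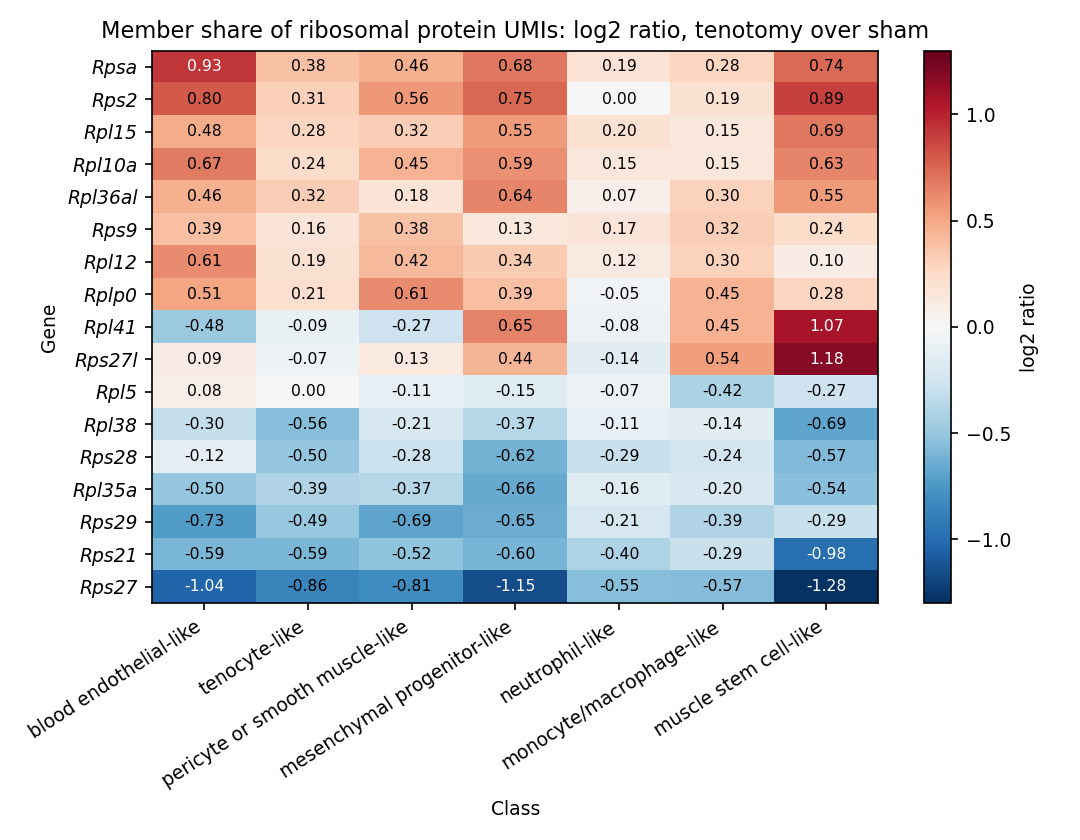
Log2 ratio (tenotomy over sham) of the share of a gene among all ribosomal protein UMIs, for 17 members (rows) in 7 classes (columns); red is a larger and blue a smaller share in tenotomy. Rpsa is above 0 and Rps27 below 0 in every column, while Rpl41 is above 0 in muscle stem cell-like and mesenchymal progenitor-like cells and below 0 in blood endothelial-like cells.

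The members with a smaller share included many of the shortest proteins. Coding lengths came from the principal transcripts of the GENCODE M21 annotation, and the comparison was chosen after the values were seen. Of the measured members, 10 have at most 100 codons, among them Rps27 and Rps27l (84 codons each), Rps21 (83), Rps28 (69), Rps29 (56), Rpl38 (70) and Rpl41 (25). Their median ratio of the share of member UMIs was 0.711 in mesenchymal progenitor-like cells, where the 71 longer members had 1.02. Below 1 were 8 of the 10 short and 34 of the 71 longer members. In muscle stem cell-like cells the medians were 0.739 and 1, again with 8 of 10 below 1, and 35 of the 71 longer members. In blood endothelial-like cells they were 0.773 and 1.03, and in monocyte/macrophage-like cells 0.906 and 1.001. Rpsa (295 codons), Rps2 (293) and Rplp0 (317) are among the longer members. Over the measured members, Spearman's rho of coding length with the ratio was 0.59 in blood endothelial-like (81 genes), 0.51 in neutrophil-like (81), 0.48 in tenocyte-like (80) and pericyte or smooth muscle-like (80), 0.39 in the mesenchymal progenitor-like class (81), 0.27 in muscle stem cell-like (81) and 0.24 in monocyte/macrophage-like cells (81). These values describe genes within the same 2 libraries and have no p-value.

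**Figure D4:**
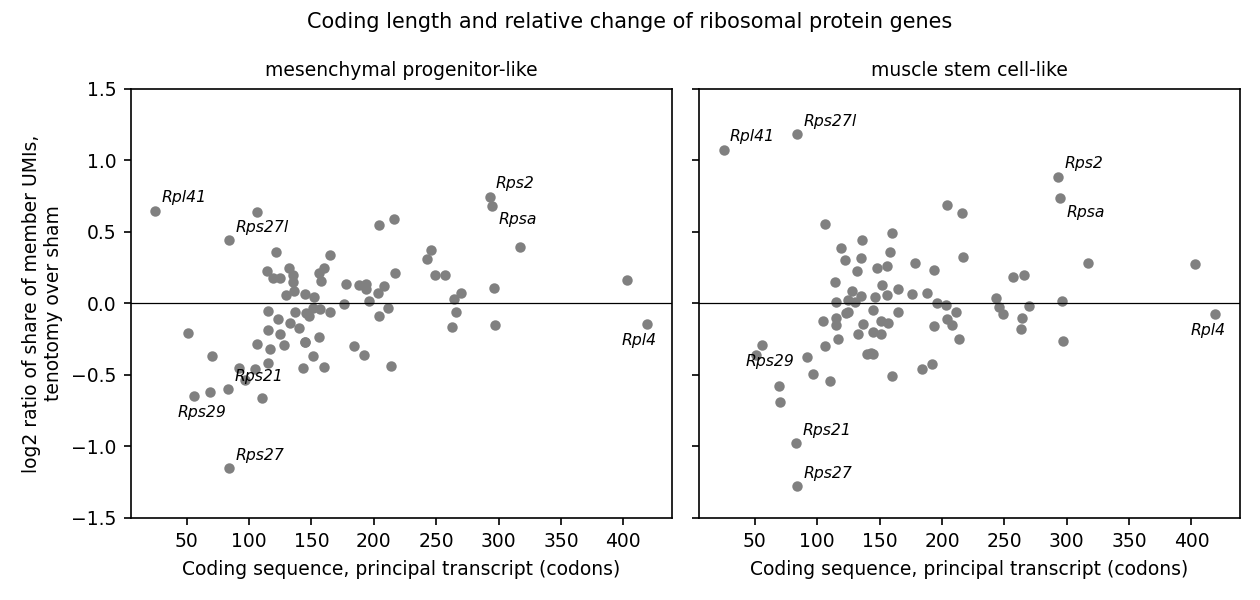
Coding length in codons (x axis) against the log2 ratio, tenotomy over sham, of the share among ribosomal protein UMIs (y axis), with mesenchymal progenitor-like cells on the left and muscle stem cell-like cells on the right; each point is a gene. The short genes Rps27, Rps21 and Rps29 lie below 0 and the longer Rps2 and Rpsa above 0, while the short genes Rpl41 and Rps27l lie above 0 in both panels.

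Rpl41, the shortest member, went both ways by class. In muscle stem cell-like cells it had 2045 CPM in sham and 4261 CPM in tenotomy, a fold of 2.08 (2.01 to 2.16). Mesenchymal progenitor-like cells had 1617 and 3553 CPM, a fold of 2.20 (2.17 to 2.23). In blood endothelial-like cells it had 2231 and 2531 CPM, a fold of 1.13 (1.11 to 1.16), so that its share of member UMIs was smaller there (ratio 0.715) and larger in the other 2 classes (2.11 and 1.57). In the sham library its share of member UMIs was lowest in muscle stem cell-like cells (0.833%) and highest in blood endothelial-like cells (2.26%), a range of 2.72 times, where the median of the members was 1.40 times. Within mesenchymal states the tenotomy level of Rpl41 was 3763 CPM in the Postn Tnc type, 3693 CPM in cycling cells, 2887 CPM in the Pi16 type and 2710 CPM in the Smoc2 type.

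The proteins of the stalk, which recruits translation factors to the large subunit, did not move together. Rplp0, the base of the stalk, was 2.26-fold higher in blood endothelial-like cells (1284 and 2903 CPM), 1.84-fold in mesenchymal progenitor-like cells (2385 and 4385 CPM) and 1.48-fold in monocyte/macrophage-like cells (1616 and 2388 CPM). Rplp1 was 1.64-fold higher in mesenchymal progenitor-like cells (3388 and 5554 CPM) and 0.861-fold in monocyte/macrophage-like cells (3564 and 3069 CPM). Rplp2 had a smaller share of member UMIs in all 7 classes, with ratios from 0.823 to 0.996. Rpl5 and Rpl11, which bind 5S RNA and can bind Mdm2, also parted in muscle stem cell-like cells, where Rpl5 had 2982 and 2453 CPM, a fold of 0.823, and Rpl11 had 2652 and 3189 CPM, a fold of 1.20. Rps6 had folds of 0.939 in muscle stem cell-like and 1.61 in mesenchymal progenitor-like cells. Rps27a, made as a fusion with ubiquitin, had a larger share of member UMIs in all 7 classes.

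Paralogues were set against their partners as a percentage of the pair's UMIs. Counts of 2 genes need not reflect equal shares of transcripts, so only the libraries and classes are compared. Rps27l, a paralogue of Rps27 and a known p53 target, made up 9.02% of the pair in sham and 35.4% in tenotomy muscle stem cell-like cells, from 434 and 2912 UMIs of Rps27l. It made up 11.4% and 28.1% in mesenchymal progenitor-like cells, 13.17% and 24.96% in blood endothelial-like cells, and 13.41% and 25.03% in monocyte/macrophage-like cells. Both genes moved, since Rps27l itself was 2.25-fold (2.03 to 2.49) higher in muscle stem cell-like cells, at 237.0 and 532.5 CPM, and Rps27 was lower. In cycling cells of the tenotomy library Rps27l made up 38.4% of the pair among muscle stem cell-like, 34.4% among monocyte/macrophage-like and 32.4% among mesenchymal progenitor-like cells. Some states not called cycling were close or higher in that library. Differentiating muscle stem cell-like cells had 34.95%, the Postn Tnc type 29.35% and endothelial tip cells 40.2% (25 cells). Cycling neutrophil-like cells had 25.1% and precursors 23.85%. Undifferentiated muscle stem cell-like cells had 9.37% in sham (91 cells) and 21.1% in tenotomy (21 cells). In the tenotomy library it was only 7.10% in B cell-like cells and 5.51% in the T or natural killer cell-like class.

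Rpl36al, the paralogue of Rpl36a, made up more of its pair in tenotomy in each of the 7 compared classes. It had 32.7% and 48.0% in mesenchymal progenitor-like cells, 28.6% and 41.9% in muscle stem cell-like cells, and 50.2% and 57.2% in monocyte/macrophage-like cells. Rpl22l1, the paralogue of Rpl22, made up 33.4% and 44.1% in mesenchymal progenitor-like cells but 27.3% and 27.1% in blood endothelial-like and 24.3% and 24.0% in monocyte/macrophage-like cells. Rpl7l1 made up only 1.83% and 2.25% of its pair with Rpl7 in mesenchymal progenitor-like cells. Rpl39l, known from the male germ line, had 0 UMIs in the muscle stem cell-like cells of both libraries, where 3 UMIs would be 1.64 and 0.549 CPM. It reached 3.78 and 7.32 CPM in mesenchymal progenitor-like cells and 8.86 and 10.0 CPM in tenocyte-like cells.

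**Figure D5:**
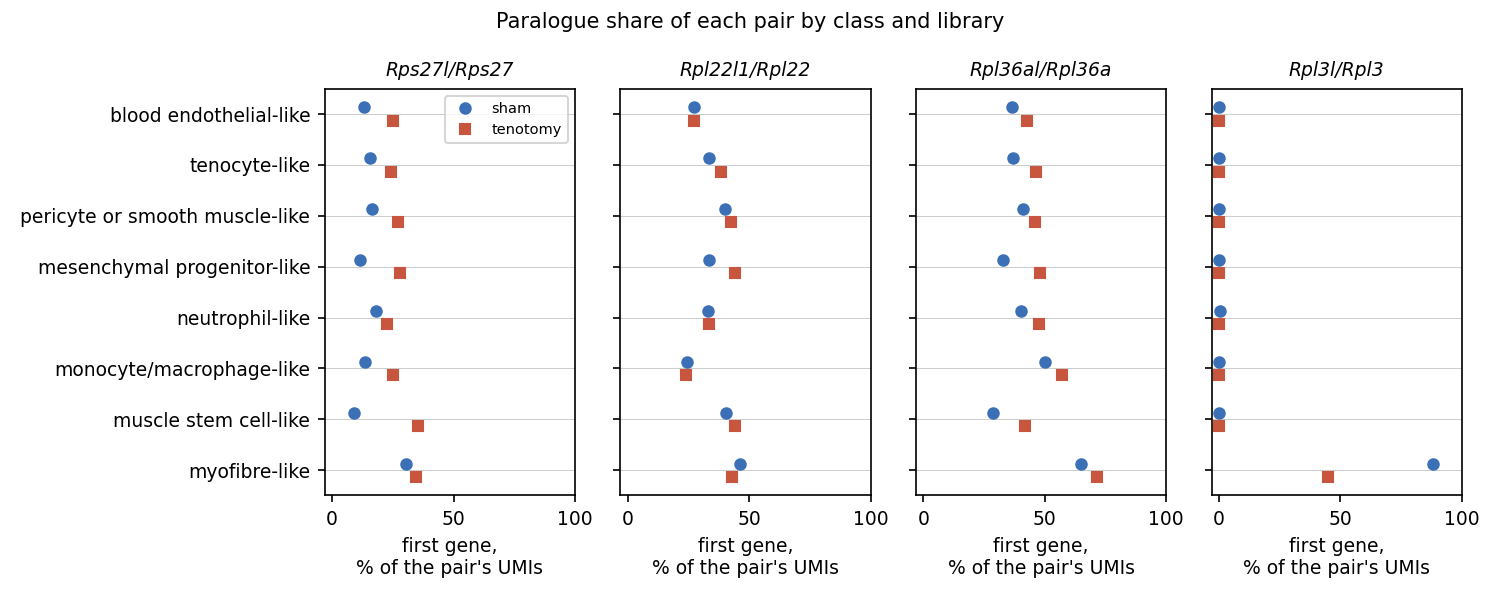
UMIs of a paralogue as a percentage of the UMIs of its pair (x axes) in 8 classes (y axis) and both libraries, for 4 pairs. Rps27l lies to the right in tenotomy in all 8 classes, and Rpl3l is near 0 except in myofibre-like cells (88.3% in sham and 44.8% in tenotomy).

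Rpl3l, the paralogue of Rpl3 found in striated muscle, had its highest level in both libraries in myofibre-like cells, which carry muscle fibre transcripts and may be fibre fragments. Of its UMIs in the files, 151 of 195 in sham (77.4%) and 43 of 88 in tenotomy (48.9%) lay in these cells. Its level there was 847.4 CPM in sham (47 cells) and 412.0 CPM in tenotomy (57 cells), while Rpl3 had 112.2 and 507.8 CPM. Rpl3l thus made up 88.3% (82.5 to 92.7) of the pair in sham and 44.8% (34.6 to 55.3) in tenotomy, and 91.8% and 42.4% without the cell with most Rpl3l in each library. At least 1 UMI of Rpl3l was found in 37 of 47 and in 25 of 57 of these cells, at median depths of 2321 and 1333 UMIs. Mesenchymal progenitor-like cells, which should lack the gene, had 1 UMI in 1978 cells and 3 UMIs in 1751 cells at median depths of 8333 and 14188. Some other classes had more. Blood endothelial-like cells had 22 UMIs in sham (1.88 CPM) and 0 in tenotomy, and tenotomy monocyte/macrophage-like cells had 11 UMIs (0.377 CPM). The highest level outside myofibre-like cells was 15.2 CPM, from 2 UMIs in 9 sham dendritic-like cells. Marker genes of the other classes summed to 600.5 CPM in sham and 1274 CPM in tenotomy myofibre-like cells, and their part in the Rpl3 level was not tested. The sham class holds fewer than 50 cells, so its values are descriptions and it is not among the 7 compared classes.

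Some members also set classes apart within a library. In the tenotomy library the share of member UMIs ranged most for Rps27l, by 6.61 times over the classes with at least 50 cells, followed by Rpl36al (3.09 times), Rpl3 (2.99), Rpl22l1 (2.73), Rps27 (2.60) and Rps2 (2.57), where the median of 80 members was 1.54 times. Some ends of these ranges rest on few UMIs. For Rps27l they were the T or natural killer cell-like class (40 UMIs) and myofibre-like cells (43 UMIs). Rpl36al had its ends in the same classes (191 and 96 UMIs), and Rpl3 was lowest in myofibre-like cells (53 UMIs). Members with 3 or fewer UMIs in their lowest class were not ranked, which left out Rpl3l (0 UMIs in tenocyte-like cells), Rpl39l and Rpl7l1 (1 UMI in myofibre-like cells). In the sham library the share of member UMIs ranged most for Rpl7l1 (4.12 times), Rpl41 (2.72), Rps29 (2.69), Rpsa (2.26), Rps27l (2.23) and Rpl36al (1.94). Rpl7l1 was highest there in 66 glial-like cells, with 27 UMIs. Rps29 was highest among sham classes in monocyte/macrophage-like cells, at 2.51% of member UMIs, and lowest in muscle stem cell-like cells, at 0.934%. Mature neutrophil-like cells of the tenotomy library had 0.958% of their member UMIs from Rps27, while the precursors had 0.465% and cycling cells 0.408%.

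Other genes of the translation machinery gave a mixed picture. Of 22 other translation genes, mostly elongation and initiation factors and the hosts of small nucleolar RNAs, 10 of 21 measured were at least 1.5-fold higher and 1 lower in blood endothelial-like cells (all genes 17.8% and 16.4%). In mesenchymal progenitor-like cells 7 of 22 were higher and 1 lower (all genes 30.0% and 26.4%), near the background for higher genes, and in muscle stem cell-like cells 4 of 22 were higher and 2 lower (all genes 40.5% and 26.4%), under it. Snhg8, a snoRNA host, had the lowest fold of this list in all 7 classes, from 0.473 to 0.640, while Eef1g, a subunit of elongation factor 1, was 2.72-fold higher in mesenchymal progenitor-like cells. Of 29 ribosome biogenesis genes, 7 of 13 measured were higher and 0 lower in blood endothelial-like cells, 11 of 22 higher and 3 lower in muscle stem cell-like cells, and 1 of 11 higher and 5 lower in monocyte/macrophage-like cells (all genes 18.5% and 15.6%). Summed over all 29 genes with no limit on low values, the ratios in these classes were 1.52, 1.16 and 0.815. Nhp2, a protein of the H/ACA ribonucleoproteins that modify ribosomal RNA, was 5.18-fold higher in blood endothelial-like and 4.24-fold higher in mesenchymal progenitor-like cells. Myc, a regulator of ribosome production, had a fold of 0.158 in muscle stem cell-like and 0.264 in mesenchymal progenitor-like cells. Myc is itself induced rapidly in many cells, and the immediate early genes were lower in tenotomy in both classes too, whose part here was not tested.

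The genes of the mitochondrial ribosome had a higher summed level in tenotomy in each of the 7 classes. Summed over all 78 genes with no limit on low values, a sum added after the other values were seen, the level in muscle stem cell-like cells was 2367 CPM in sham and 7055 CPM in tenotomy, a ratio of 2.98 (2.89 to 3.08), beside 0.990 for the cytosolic members. Mesenchymal progenitor-like cells had 2466 and 4563 CPM, a ratio of 1.85 (1.83 to 1.87), and blood endothelial-like cells 2770 and 4002 CPM, a ratio of 1.44 (1.42 to 1.47). In the other 4 classes the ratio lay between 1.18 and 1.35. Of the single genes in muscle stem cell-like cells, 12 reached 50 CPM in sham and 61 in tenotomy, so that a count of higher genes among those measured would be set by the limit. Of the translation control genes, Eif4ebp1, an inhibitor of cap-dependent translation, had the highest fold of the list in 5 classes, with 3.86 in muscle stem cell-like and 4.91 in mesenchymal progenitor-like cells.

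Outside the rule, the genes whose levels most resembled the summed members were Rack1, Eef1b2 and Eif3h. Over 20 points (a class in a library with at least 50 cells) and among 210 genes with at least 100 CPM in all of them, Pearson's r of the log2 CPM was 0.98, 0.95 and 0.90. Rack1 is a protein of the small subunit without an Rp symbol, and the other 2 are an elongation and an initiation factor subunit. The points share libraries and the total to which CPM is scaled.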

How the data were processed

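The files hold the authors' raw UMI counts per gene and barcode for 1 sham and 1 tenotomy library (Chromium Next GEM 3′ chemistry, v3.1, per the labels). Cell Ranger 4.0.0 and mm10 are named in the submitters' processing notes. The labels do not say how reads shared with processed pseudogenes were assigned, which can lower the counts of any member. Symbols were matched to 32158 identifiers. Cells needed 300 genes, 500 UMIs and no more than 10% of UMIs from mitochondrial genes, and scrublet in scanpy 1.11.5, with the tenotomy threshold of 0.208 for both libraries, removed 2.65% of sham and 2.75% of tenotomy cells as doublets. A class needed at least 3 UMIs over at least 2 gate genes and 3 times the UMIs of any other class, except that mesenchymal genes did not compete with the tenocyte gate, whose cells left the mesenchymal class, and that a cell with at least 10% of its UMIs in myofibre genes was myofibre-like. Cells of mixed markers (673 and 723) or none (395 and 709) were left out of the classes, but they count in the values over all kept cells and in the exchanged makeup. UMIs were summed per class and scaled to CPM. Folds are tenotomy over sham with exact conditional binomial intervals. Percentages of a pair have Clopper-Pearson intervals. The calculation was tested on simulated data. Named genes are the 6 members (3 in the smaller classes) furthest above and below the summed members, ranked by the interval bound nearest to 1, the paralogues, the 6 of widest range over classes, 8 subunits of known roles and the 3 genes most alike. Members and lists were chosen with earlier results of these data known.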

Additional observations from a re-analysis of the deposited data

How the results depend on the processing

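No paired analysis was possible because each side gave 1 library. With 0 replicates, the alternatives change cells, totals or thresholds only, and no value has a test. The ratio of the member share was above 1 under each alternative run in blood endothelial-like (1.43 to 1.604), mesenchymal progenitor-like (1.32 to 1.40), pericyte or smooth muscle-like (1.34 to 1.497), tenocyte-like (1.27 to 1.54) and monocyte/macrophage-like cells (1.04 to 1.16). It crossed 1 in muscle stem cell-like (0.981 to 1.01) and neutrophil-like cells (0.818 to 1.88). In the order mesenchymal progenitor, tenocyte, blood endothelial, muscle stem cell, pericyte or smooth muscle, monocyte/macrophage and neutrophil, the ratio was 1.34, 1.38, 1.43, 0.982, 1.34, 1.09 and 0.818 as a mean over cells; 1.40, 1.54, 1.59, 1.01, 1.48, 1.04 and 1.11 at a mitochondrial limit of 5%; 1.39, 1.496, 1.604, 0.981, 1.37, 1.11 and 1.49 with gates on thinned cells; and 1.32, 1.27, 1.56, 0.981, 1.497, 1.16 and 1.88 for cells of 3000 to 10000 UMIs. In cells without cycle transcripts it was 1.38, 1.49, 1.52, 1.005, 1.39 and, in neutrophil-like cells, 1.08. Without mitochondrial UMIs it was 1.40, 1.51 and, in monocyte/macrophage-like cells, 1.08. With doublet calls kept it was 1.40 in mesenchymal progenitor-like, 1.57 in blood endothelial-like, 1.39 in pericyte or smooth muscle-like and 1.13 in neutrophil-like cells. With a gate of 6 UMIs over 3 genes it was 1.40, 1.54, 0.995, 1.08 and 1.11 in mesenchymal progenitor-like, tenocyte-like, muscle stem cell-like, monocyte/macrophage-like and neutrophil-like cells. With states called from 3 marker UMIs the ratio was 1.27 for the Pi16 type, 1.47 for the Smoc2 type and 1.47 for capillary cells, and without mitochondrial UMIs it was 1.16 for the C1q type.

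Counts of members past a fold depend on the threshold. The shares of all measured genes given above belong to the main settings only. The counts below have no such share beside them, so they do not show how members stand against other genes. In the same order of classes, 54, 71, 73, 11, 58, 12 and 13 members were higher at a looser limit (a fold of 5 to 4), and 6, 1, 8, 2, 2, 0 and 0 at 2-fold. Lower members at the looser limit were 14 in muscle stem cell-like cells and 1 each in blood endothelial-like, monocyte/macrophage-like and neutrophil-like cells, and at 2-fold 1 in muscle stem cell-like and 0 in mesenchymal progenitor-like cells. Folds divided by the median of all genes gave 20 higher in mesenchymal progenitor-like, 3 higher and 14 lower in muscle stem cell-like and 0 higher in monocyte/macrophage-like cells. In cells thinned to 2000 UMIs, 20 were higher in mesenchymal progenitor-like, 24 in tenocyte-like, 2 in monocyte/macrophage-like and 49 in neutrophil-like cells (1 lower). Without the CPM limit 2 were higher in monocyte/macrophage-like cells. In cells without cycle transcripts 2 were higher there, 1 in neutrophil-like cells, and 0 lower in mesenchymal progenitor-like cells, as with a total without the members. In cells without cycle transcripts the ratio of the share of member UMIs in neutrophil-like cells turned for Rpl36a (1.003) and Rpl8 (0.976). The cause of these shifts was not tested.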
